A study of Mus musculus with 29 samples.

Results

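The comparison described here is the step between midbrain-patterned neural precursors (mDPC) and the neural precursor cells of the stage before (NPC), in mouse cells labelled BERKO, the name of a knockout of estrogen receptor beta (gene Esr2). It rests on 4 of the 29 arrays of the study: the 2 untreated mDPC arrays and the 2 untreated NPC arrays with that label, chosen by stage, genotype and treatment as the labels give them. The whole study followed cells labelled WT or BERKO from embryonic stem cells through NPC and mDPC to cells matured as midbrain neurons, with or without the estrogen receptor beta agonist LY3201. All cells were grown without feeders. NPC were expanded with the growth factor FGFb and laminin. mDPC received FGFb, FGF8b, Shh and ascorbic acid. The treatment field of the 4 arrays reads none, and the protocol gives vehicle (DMSO) for 4 days at both stages. The labels call the replicates biological and do not say whether the BERKO cells are 1 clone, which part of Esr2 is missing, or how long mDPC had been in their medium. Stage and culture medium changed together, so their parts in any difference cannot be told apart. The other groups used are the same step in BERKO cells given 0.5 nM LY3201 for 4 days and in untreated WT cells, with 2 mDPC and 2 NPC arrays each.

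Neural precursors divide under FGF and Notch signals and carry genes of radial glia, the stem cells of the embryonic brain. FGF8 and Sonic hedgehog (Shh) are the signals that pattern the ventral midbrain in the embryo, where floor plate cells express Foxa2 and Lmx1a and give rise to dopamine neurons. Precursors that leave the cell cycle can become neurons, astrocytes or oligodendrocytes, and each of these fates has its own marker genes.

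RNA was measured on 1 Clariom D array per sample, a microarray with probes along the whole length of transcripts, from 150 ng of total RNA. Levels are on a log2 scale, so a difference of 1 is a doubling. The median over all transcript clusters lay between 3.60 and 3.68 in the 4 arrays. Negative control probes had medians between 3.91 and 4.11 and 95th percentiles between 7.17 and 7.39. A level under that 95th percentile is called dim here, because it is not clearly told from background. A bound follows a called change where 1 group was dim in both arrays and the other was dim in neither. It is written as at least N-fold, with the dim arrays held at that percentile. Where only 1 array of a group exceeded the percentile, the change is given as measured and has no bound. Where the brighter group's mean did not exceed the percentile at which the dim arrays are held, no fold is given. Replicates had Pearson r = 0.9978 across genes in both groups, and the replicate differences had an SD of 0.222 in mDPC and 0.233 in NPC. Genes are not independent replicates, so r describes these arrays only. Changes are mDPC minus NPC, given with the standard error of the linear model (± SE, n = 2 arrays per group). A gene is called when its limma p, adjusted over all 22063 genes tested, is below 0.05. The model takes the spread from all 29 arrays in 14 groups, so SE and p do not rest on the 4 arrays alone. A level of a bulk sample cannot tell fewer cells of a type from less RNA per cell, and this holds for every result that follows.

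Esr2 was at 4.09 and 4.17 in the mDPC arrays, against 4.34 and 4.27 in the NPC arrays, and its change was -0.17 ± 0.12 (adjusted p = 0.321). Its groups did not overlap, by less than the model could call, and all 4 levels lay near the medians of the negative controls. In the WT arrays Esr2 was at 3.27 and 3.33 in mDPC WT, against 3.37 and 3.26 in NPC WT, so the arrays labelled as the knockout had the higher signal. This direction goes against the label, but Esr2 was dim in all of these arrays, and the difference between the genotypes was not tested. Signal at this level shows neither presence nor loss of Esr2. BERKO and WT name the labels throughout. The related receptor Esr1 changed by 0.10 ± 0.09 (adjusted p = 0.446).

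Between the stages, 7818 of 22063 genes were called (35.4%), 3645 of them higher in mDPC (16.5%) and 4173 lower (18.9%). The balance depends on the scaling, since quantile normalization gave 4287 higher and 3388 lower. Changes that measured 2-fold or more, with no bound applied, were called for 755 genes upwards (3.42%) and 1175 downwards (5.33%). Changes that measured 8-fold or more were called for 45 genes upwards (0.204%) and 150 downwards (0.68%). The mDPC and NPC arrays did not overlap for 15044 genes (68.2%). The median change over all genes tested was 0.04. Of the called genes, 1617 of the higher and 1412 of the lower were dim in all 4 arrays. The strongest falls belonged to genes of cell division, and the strongest rises included genes known from astrocytes. The counts of each gene list below stand beside the shares of 16.5% higher and 18.9% lower over all genes. Whether a list differs from these shares was not tested.

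**Figure D1:**
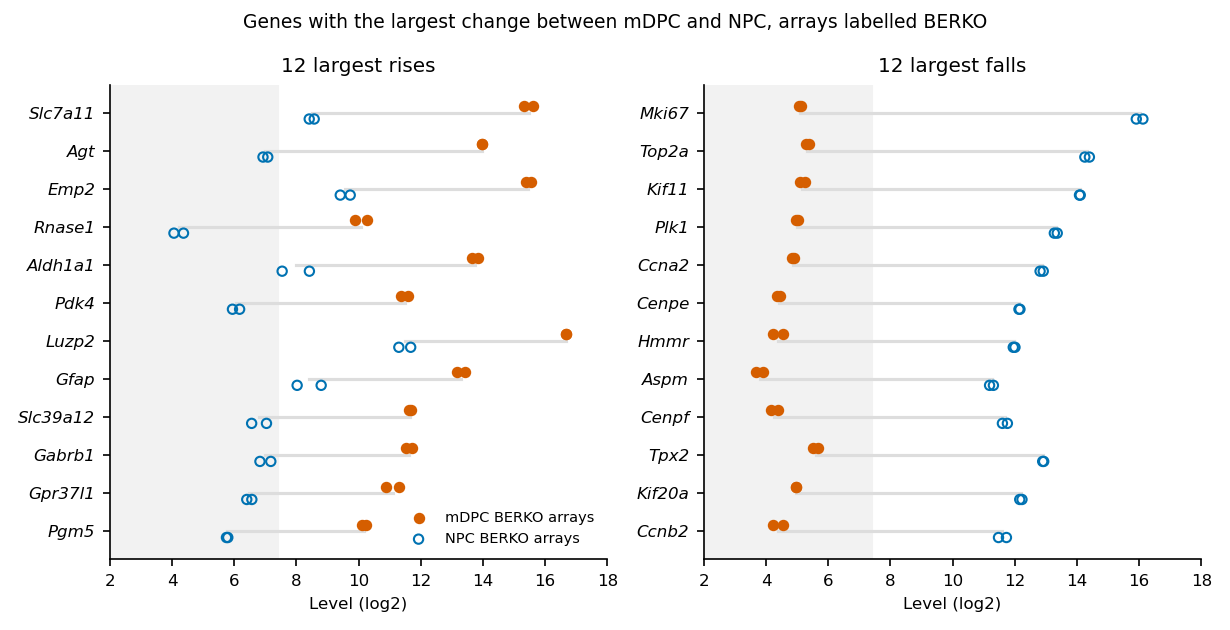
Levels (log2, horizontal axis) of the 12 genes with the largest called rise and the 12 with the largest called fall. Filled points are the 2 mDPC BERKO arrays, open points the 2 NPC BERKO arrays, the line joins the group means, and the shaded area ends at 7.39, the highest 95th percentile of the negative controls. All 12 genes that fell are dim in mDPC, between a mean of 3.80 and one of 5.59.

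Slc7a11, the cystine transporter of the glutathione pathway, was at 15.31 and 15.62 in the mDPC arrays, against 8.41 and 8.57 in the NPC arrays, a change of 6.98 ± 0.23 (adjusted p = 8.08e-15). Agt, angiotensinogen, which astrocytes make in the brain, was at 13.96 and 13.96 in the mDPC arrays, against 7.08 and 6.93 in the NPC arrays, a change of 6.96 ± 0.20 (adjusted p = 1.76e-15, at least 98.1-fold). For both genes every mDPC array lay above every NPC array, by a distance far beyond the replicate spread. The membrane protein gene Emp2 changed by 5.89 ± 0.14, the secreted ribonuclease gene Rnase1 by 5.86 ± 0.23 (at least 6.64-fold), and Aldh1a1, which makes retinoic acid, by 5.76 ± 0.21. Pdk4, an inhibitor of pyruvate dehydrogenase, was at 11.60 and 11.38 in the mDPC arrays, against 5.94 and 6.17 in the NPC arrays. It changed by 5.43 ± 0.18 (at least 17.7-fold). Luzp2, a leucine zipper protein gene, was at 16.67 and 16.68 in the mDPC arrays, against 11.68 and 11.29 in the NPC arrays, and the intermediate filament gene Gfap was at 13.43 and 13.17 in the mDPC arrays, against 8.02 and 8.80 in the NPC arrays. Both were already above the control percentile in NPC and rose in both mDPC arrays. The remaining genes among the 12 largest rises were Slc39a12, a zinc transporter (4.86, at least 19.9-fold), Gabrb1, a GABA-A receptor subunit (4.63, at least 19.6-fold), the glial receptor gene Gpr37l1 (4.61, at least 13.5-fold) and Pgm5, a relative of phosphoglucomutase (4.40, at least 7.12-fold).

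Cell division genes fell together. Of 38 genes of mitosis tested, 38 were called lower and 0 higher, with a median change of -5.76 against 0.04 over all genes. Mki67, the gene of the proliferation antigen Ki-67, was at 5.12 and 5.04 in the mDPC arrays, against 15.91 and 16.12 in the NPC arrays, a change of -10.93 ± 0.20 (adjusted p = 1.58e-18). Top2a, the topoisomerase that untangles sister chromatids, was at 5.37 and 5.29 in the mDPC arrays, against 14.25 and 14.40 in the NPC arrays, a change of -8.99 ± 0.12 (adjusted p = 2.21e-20). In both genes the mDPC arrays were dim and the NPC arrays were bright, and the groups did not overlap. Kif11, the motor that separates spindle poles, was at 5.24 and 5.10 in the mDPC arrays, against 14.08 and 14.11 in the NPC arrays, and Plk1, a mitotic kinase, at 4.96 and 5.04 in the mDPC arrays, against 13.27 and 13.37 in the NPC arrays. Ccna2 and Ccnb2, the cyclins A2 and B2, changed by -7.99 ± 0.13 (at least 51.7-fold) and -7.21 ± 0.21 (at least 21.6-fold). The kinetochore genes Cenpe and Cenpf changed by -7.75 ± 0.11 (at least 31.5-fold) and -7.42 ± 0.14 (at least 22.8-fold), and the spindle genes Tpx2 and Kif20a by -7.32 ± 0.11 (at least 53.5-fold) and -7.23 ± 0.14 (at least 32.5-fold). Hmmr and Aspm, which act at spindle poles and are not on the mitosis list, changed by -7.59 ± 0.13 (at least 28-fold) and -7.45 ± 0.16 (at least 16.9-fold). Because the mDPC levels were dim, these falls are better read as bounds. By them Mki67 was at least 459-fold lower, Top2a at least 142-fold, Kif11 at least 121-fold and Plk1 at least 70.9-fold. The median of the list is -3.65 when the 36 genes that were dim in mDPC alone are set to their bound. The 2 members dim at both stages were the survivin gene Birc5 (-1.52) and the transcription factor gene Mybl2 (-1.28).

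Genes of DNA replication fell as well. Of 40 tested, 38 were called lower and 0 higher, with a median of -1.60, or -1.13 with genes at their bound. However, 19 of the 40 were dim in all 4 arrays. These have no bound and enter both medians with their change as measured. Rrm2, a subunit of ribonucleotide reductase, was dim in mDPC and changed by -4.85 ± 0.15 (adjusted p = 4.75e-15, at least 13.3-fold), and the subunit Rrm1 was at 9.93 and 9.68 in the mDPC arrays, against 14.04 and 14.06 in the NPC arrays. Rrm1 was measured above background on both sides and changed by -4.25 ± 0.09 (adjusted p = 1.72e-17). Of the replicative helicase, Mcm5 changed by -4.65 ± 0.14 (at least 4.59-fold), Mcm2 by -3.95 ± 0.13 (at least 4.32-fold) and Mcm6 by -3.92 ± 0.14 (at least 5.77-fold). The repressor gene E2f8 changed by -3.59 ± 0.18 (at least 3.59-fold). The members not called were Gins4 (-0.28, and called at -0.42 without replicate 1 of mDPC), a helicase subunit, and Orc1 (-0.20), of the origin recognition complex. Among 10 histone and histone processing genes, 9 were lower and 0 higher. H2ax, the variant marked at DNA breaks, was at 7.79 and 7.75 in the mDPC arrays, against 12.50 and 13.11 in the NPC arrays. H2az1, the variant H2A.Z, was at 11.36 and 11.11 in the mDPC arrays, against 14.04 and 14.20 in the NPC arrays, and the linker histone gene H1f5 changed by -4.76 ± 0.28 (at least 4.89-fold). H2ax and H2az1 kept levels above background in mDPC, so their changes of -5.04 and -2.88 are measured on both sides. Probes of histone genes with near-identical copies may share signal, and the sequences behind the clusters were not used here.

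Regulators of entry into the cycle moved in both directions. Of 16 genes of D cyclins, their kinases and their inhibitors, 8 were lower and 3 higher. Ccnd2, cyclin D2, was at 11.05 and 10.77 in the mDPC arrays, against 12.95 and 13.19 in the NPC arrays, a change of -2.17 ± 0.13 (adjusted p = 6.94e-11). Its kinase partners Cdk6 and Cdk4 changed by -1.89 ± 0.16 and -1.07 ± 0.10, and the inhibitor gene Cdkn2c by -2.49 ± 0.15 (at least 1.23-fold). The retinoblastoma gene Rb1 rose by 1.28 ± 0.18 on the cluster used, while 2 other clusters named Rb1 differed by -0.36 and -0.16 at lower levels. Its relative Rbl2, a member of the complex that represses cycle genes in resting cells, was at 10.21 and 10.27 in the mDPC arrays, against 9.51 and 9.32 in the NPC arrays, a change of 0.83 ± 0.08 (adjusted p = 1.39e-07). Cdkn1a, the p53 target p21, was at 11.23 and 10.78 in the mDPC arrays, against 10.52 and 11.27 in the NPC arrays, and was not called (0.11 ± 0.21, adjusted p = 0.727). Of 18 genes of ribosome biogenesis, 10 were lower and 0 higher, with Dkc1 (-0.78) and Nolc1 (-0.69), of small nucleolar ribonucleoproteins, the furthest down.

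Promoters of the genes that fell are shown to let the motifs known from cell cycle genes be read in place. RefSeq promoters of assembly GRCm38.p6, from 250 bases before to 50 bases after the start site, were matched by symbol for 11796 of 14536 protein-coding genes tested. The search, on both strands, covered the cell cycle homology region (TTTGAA), the CCAAT box (CCAAT), the E2F motif (TTTCCCGC or TTTGGCGC), the E-box (CACGTG) and the cyclic AMP response element (TGACGTCA). No motif holds another, but a CCAAT box and a cell cycle homology region that adjoin can share 1 base. Capitals mark the cell cycle homology region and the CCAAT box on either strand for Mki67, Plk1 and Ccnb2, the E2F motif for Mcm6, and the CCAAT box for Mvk of the sterol pathway described further on.
Mki67 (chr7:135716330-135716629, minus strand): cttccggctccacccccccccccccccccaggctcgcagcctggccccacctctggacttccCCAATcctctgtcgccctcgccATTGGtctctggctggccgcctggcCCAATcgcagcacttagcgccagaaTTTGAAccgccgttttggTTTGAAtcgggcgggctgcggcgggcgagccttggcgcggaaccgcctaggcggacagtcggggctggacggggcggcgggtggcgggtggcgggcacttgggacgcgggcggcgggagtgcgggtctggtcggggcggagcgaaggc
Plk1 (chr7:122159185-122159484, plus strand): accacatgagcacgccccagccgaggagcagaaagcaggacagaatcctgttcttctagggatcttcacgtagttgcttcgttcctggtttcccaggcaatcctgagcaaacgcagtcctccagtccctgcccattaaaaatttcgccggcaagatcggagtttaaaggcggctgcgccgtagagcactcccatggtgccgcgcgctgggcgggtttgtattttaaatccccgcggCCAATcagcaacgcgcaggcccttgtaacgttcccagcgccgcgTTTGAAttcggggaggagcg
Ccnb2 (chr9:70421505-70421804, minus strand): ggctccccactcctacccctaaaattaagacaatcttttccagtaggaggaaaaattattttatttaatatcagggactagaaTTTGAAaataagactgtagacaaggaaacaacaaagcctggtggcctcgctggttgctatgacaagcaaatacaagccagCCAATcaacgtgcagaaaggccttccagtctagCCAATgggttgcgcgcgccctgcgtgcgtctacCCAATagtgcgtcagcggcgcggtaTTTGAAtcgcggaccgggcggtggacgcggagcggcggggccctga
Mcm6 (chr1:128359656-128359955, minus strand): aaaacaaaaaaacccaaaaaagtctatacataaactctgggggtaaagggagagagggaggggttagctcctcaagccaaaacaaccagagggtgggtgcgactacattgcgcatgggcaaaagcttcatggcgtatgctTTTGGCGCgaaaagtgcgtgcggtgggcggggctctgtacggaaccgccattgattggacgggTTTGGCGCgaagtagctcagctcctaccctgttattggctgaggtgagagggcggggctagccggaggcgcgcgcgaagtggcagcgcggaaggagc
Mvk (chr5:114444019-114444318, plus strand): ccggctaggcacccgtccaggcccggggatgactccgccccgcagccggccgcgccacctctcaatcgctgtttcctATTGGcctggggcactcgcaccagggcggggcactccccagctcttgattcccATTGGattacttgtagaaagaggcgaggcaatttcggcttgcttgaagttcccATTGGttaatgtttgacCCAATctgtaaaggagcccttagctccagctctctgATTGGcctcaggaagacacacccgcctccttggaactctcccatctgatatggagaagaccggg

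The cell cycle homology region stood in 25 of 33 mitosis promoters (75.8%), against 13.1% of all promoters. The CCAAT box stood in 72.7% of mitosis promoters, against 38.7% of all, and 63.6% against 5.47% held both. The E2F motif was in 11 of 34 replication promoters (32.4%), against 2.77% of all, and in 3.03% of mitosis promoters. A further set held the 98 promoters of protein-coding genes whose measured fall was 8-fold or more, with no bound applied. It was taken whatever the list, so it includes mitosis promoters counted above, and no share without them was computed. Of these 98 promoters, 56.1% held the cell cycle homology region and 74.5% the CCAAT box. Of the 39 promoters of genes whose measured rise was 8-fold or more, 12.8% and 35.9% did. Of 14 promoters of sterol synthesis genes, 13 held a CCAAT box (92.9%). The E-box and the cyclic AMP response element stood in 4.08% and 6.12% of the 98 promoters of falling genes, against 9.37% and 2.87% of all. These shares are descriptions of the windows, and a match is not a bound site.

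**Figure D2:**
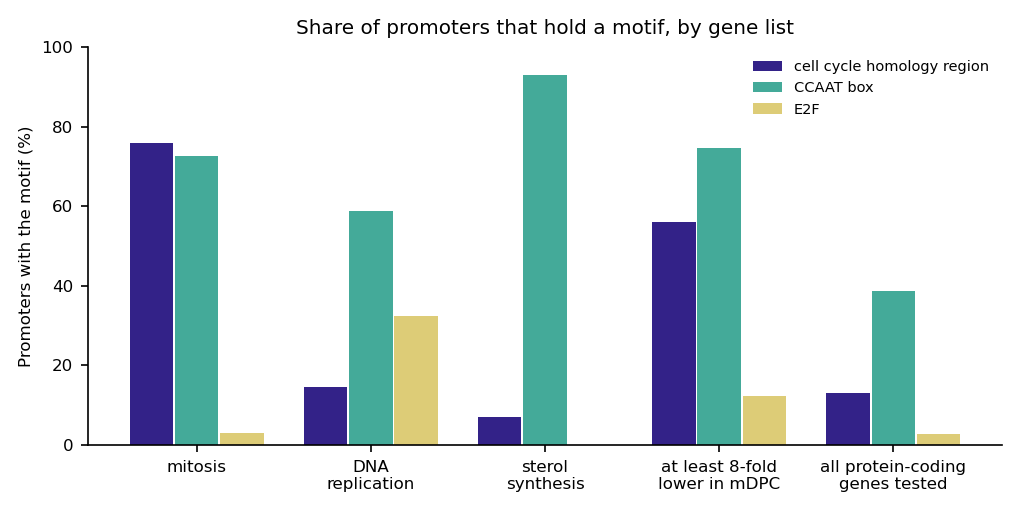
Share of promoters (percent, vertical axis) that hold each motif on either strand, for 3 gene lists, for protein-coding genes at least 8-fold lower in mDPC, and for all protein-coding genes tested. The limit of 8-fold is on the change as measured, with no bound applied. The cell cycle homology region is most frequent in mitosis promoters (75.8%) and the CCAAT box in sterol synthesis promoters (92.9%).

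Markers of astrocytes rose together. Of 30 tested, 23 were called higher and 4 lower, with a median change of 1.08 (0.93 with genes at their bound), and 25 of them were above the control percentile in both mDPC arrays. Thrsp, a regulator of lipid synthesis, was at 11.47 and 11.52 in the mDPC arrays, against 7.01 and 7.21 in the NPC arrays, a change of 4.38 ± 0.29 (at least 17.8-fold). Ntsr2, a neurotensin receptor, changed by 3.93 ± 0.20 (at least 2.05-fold), the calcium-binding protein gene S100b by 3.60 ± 0.26 and the glial adhesion gene Hepacam by 3.32 ± 0.14. Gfap, the classic filament of astrocytes, changed by 4.89 ± 0.22 (adjusted p = 9.72e-13). The glutamate transporter gene Slc1a2 was at 14.78 and 14.80 in mDPC, against 12.21 and 11.75 in NPC, and the water channel gene Aqp4 at 9.19 and 9.30 in mDPC, against 7.19 and 7.02 in NPC, with changes of 2.81 and 2.13 (at least 3.73-fold). The lower members were Chrdl1, a secreted BMP antagonist (-2.30, at least 1.76-fold), Id3 (-1.28, at least 1.88-fold), the glial transcription factor Sox9 (-1.22) and the glutamate transporter Slc1a3 (-0.32). The call of Slc1a3 was lost after quantile normalization (-0.23, limma adjusted p = 0.163) and on the compared groups alone (limma adjusted p = 0.0922). It was also lost without replicate 1 or 2 of mDPC (-0.34 and -0.3) and without replicate 1 of NPC (-0.20). Acsbg1 (-0.12), a fatty acid activating enzyme, and the transcription factor gene Nfib (-0.10) were not called.

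**Figure D3:**
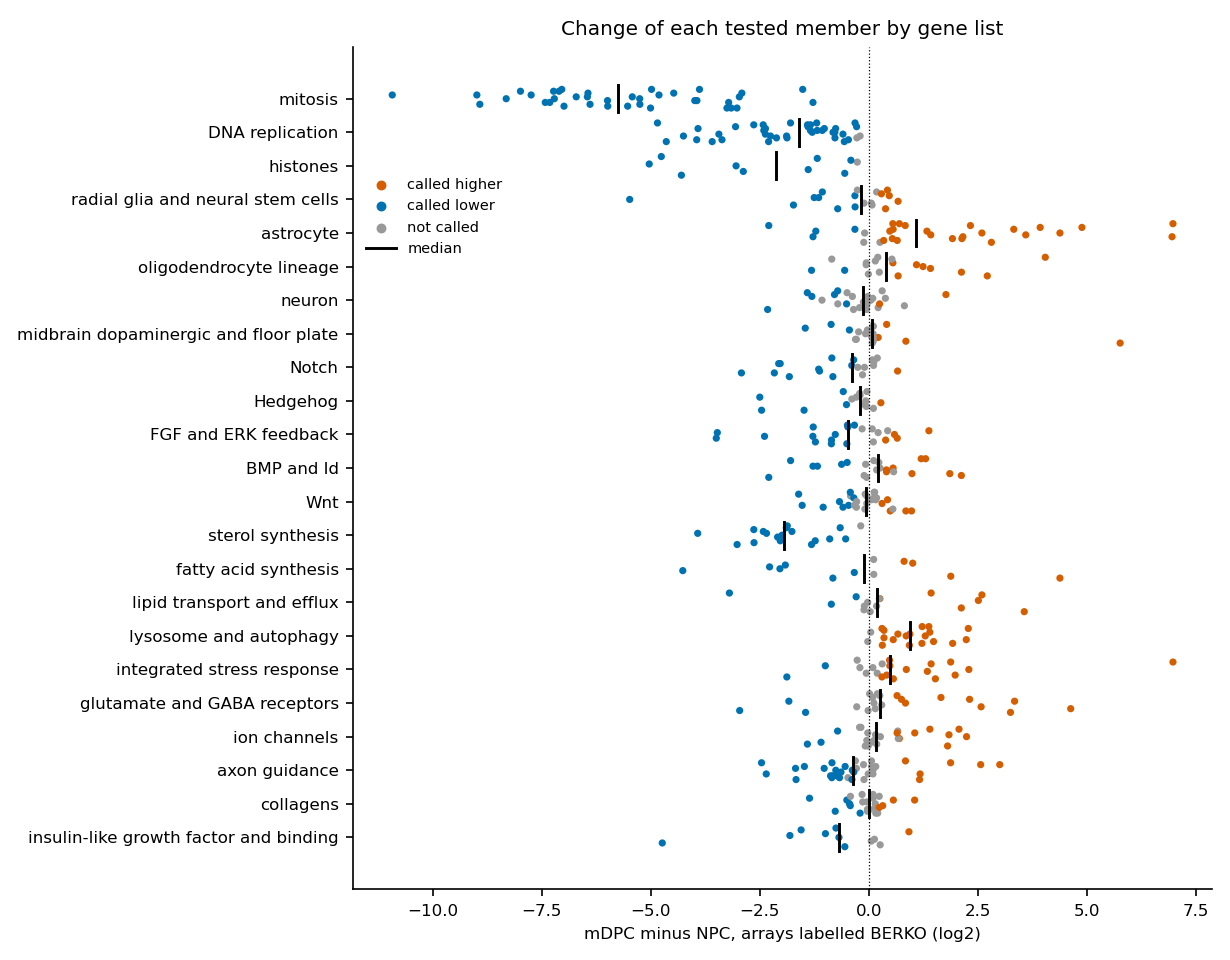
Change between mDPC and NPC (log2, horizontal axis) of every tested member of 23 gene lists in the arrays labelled BERKO. Each point is a gene, coloured by whether it was called higher, called lower or not called, and the bar is the median of the list. Mitosis, DNA replication, histone and sterol synthesis genes lie to the left, and astrocyte and lysosome genes to the right.

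Genes of radial glia and neural stem cells moved in both directions. Of 18 tested, 5 were higher and 8 lower, with a median of -0.19. Nes, the filament nestin of neural stem cells, was at 7.86 and 7.96 in the mDPC arrays, against 13.09 and 13.70 in the NPC arrays, a change of -5.49 ± 0.22 (adjusted p = 1.69e-13), the furthest fall of the list. The matrix gene Tnc changed by -1.73 ± 0.24 and the filament gene Vim by -1.07 ± 0.12. Sox2, the transcription factor that holds the precursor state, was at 13.76 and 13.78 in the mDPC arrays, against 13.93 and 14.14 in the NPC arrays, and was not called (-0.26 ± 0.12, adjusted p = 0.103). The lipid-binding protein gene Fabp7 was at 19.24 and 19.30 in the mDPC arrays, against 19.39 and 19.38 in the NPC arrays, and was not called either (-0.11 ± 0.15, adjusted p = 0.618). Among the rises was the surface protein gene Prom1 (0.67, with no fold bound). Sox1 (0.06) and the RNA-binding protein gene Msi2 (0.18) were not called. Of the 18 genes, 11 were above the control percentile in both NPC arrays, among them Nes, Sox2 and Fabp7. The NPC arrays thus carried a part of the stem cell markers that their label calls for. Nes stayed above the control percentile in mDPC.

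Genes of the oligodendrocyte lineage rose in part. Of 18 tested, 8 were higher and 2 lower, and 10 were dim in all 4 arrays. Enpp6, a choline phosphodiesterase of newly forming oligodendrocytes, was at 7.34 and 7.31 in the mDPC arrays, against 3.26 and 3.29 in the NPC arrays, a change of 4.05 ± 0.41 (adjusted p = 1.45e-07), with no fold bound because the mDPC mean did not exceed the control percentile of the NPC arrays. Bcas1, another gene of that stage, was at 8.85 and 8.87 in the mDPC arrays, against 6.11 and 6.18 in the NPC arrays (2.72, at least 2.87-fold), and Gpr17, a receptor of committed precursors, at 14.36 and 14.36 in the mDPC arrays, against 12.32 and 12.15 in the NPC arrays (2.12). Each of these genes was higher in both mDPC arrays than in both NPC arrays. The myelin regulator gene Myrf (1.41) and the myelin gene Mbp (1.24) were called higher while dim at both stages. Olig2, the lineage transcription factor, was at 15.03 and 14.79 in the mDPC arrays, against 16.41 and 16.03 in the NPC arrays, a change of -1.31 ± 0.18 (adjusted p = 8.38e-06), and Olig1 was not called (-0.06).

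Neuronal genes were mostly low. Of 25 tested, 2 were higher and 6 lower, with a median of -0.12, and 14 were dim in all 4 arrays. The synaptic vesicle gene Syt1 changed by -2.32 ± 0.58 and the growth cone gene Gap43 by -1.41 ± 0.26. Mapt, the microtubule protein tau, was at 7.21 and 7.21 in the mDPC arrays, against 5.47 and 5.42 in the NPC arrays, a change of 1.77 ± 0.16 (adjusted p = 2.89e-08), with no fold bound. Map2, of dendrites, was at 13.59 and 13.68 in the mDPC arrays, against 13.90 and 13.80 in the NPC arrays, and was not called (-0.21 ± 0.10, adjusted p = 0.109), nor was Dcx (-0.38), of migrating neurons. Among 13 proneural genes, 4 were lower and 2 higher, with Sox11, of young neurons, at -1.26, and 7 were dim in all 4 arrays.

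The midbrain label was set against its own markers. Of 30 genes of midbrain dopamine neurons and floor plate, 29 had a cluster, 20 passed the filter on low levels and 2 were above the control percentile in any of the 4 arrays. Th and Pitx3, which define dopamine neurons, did not pass the filter. Foxa2, of the floor plate, was at 4.34 and 4.26 in the mDPC arrays, against 4.25 and 4.15 in the NPC arrays, and Lmx1a at 3.45 and 3.63 in the mDPC arrays, against 3.45 and 3.52 in the NPC arrays. Both lay near the medians of the negative controls at both stages and were not called (0.10 and 0.05). Nr4a2, a regulator of dopamine neurons, was at 6.45 and 6.32 in the mDPC arrays, against 6.27 and 6.29 in the NPC arrays, and was not called (0.10), and the midbrain genes En1 (-0.23) and En2 (-0.31) were not called. The forebrain and midbrain gene Otx2 fell while dim at both stages (-0.87). The called rises were Aldh1a1, at 13.84 and 13.65 in the mDPC arrays, against 8.42 and 7.54 in the NPC arrays, the ligand Wnt5a (0.85), Ddc, which makes dopamine and serotonin (0.41), and Corin, a floor plate protease (0.21). Aldh1a1 alone of these was above the control percentile in both mDPC arrays, and it is also known from astrocytes. The called falls were Otx2, Gfra1, a receptor of neurotrophic factors (-1.46, at least 1.84-fold), and Nkx6-1, of the ventral neural tube (-0.45), so that 4 members were higher and 3 lower. The call of Corin was lost after quantile normalization (0.19, limma adjusted p = 0.0926) and on the compared groups alone (0.21, limma adjusted p = 0.127). It was also lost when any 1 mDPC or NPC replicate was left out (0.19 to 0.24). That of Ddc was lost after quantile normalization (0.4, limma adjusted p = 0.0529) and when any 1 of these replicates was left out (0.37 to 0.45). Nkx6-1 was not called without replicate 1 of NPC (-0.36). After quantile normalization 2 members were higher. The arrays labelled mDPC therefore showed little signal of the markers that define the midbrain fate in their name.

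Other genes of position changed in named cases. Of 24 regional transcription factors tested, 5 were higher and 3 lower, against 16.5% and 18.9% over all genes, and 18 were dim in all 4 arrays. Dbx2, of the mid spinal cord, was at 9.33 and 8.73 in the mDPC arrays, against 6.93 and 7.17 in the NPC arrays, and the dorsal gene Pax3 at 7.28 and 7.01 in the mDPC arrays, against 5.58 and 5.75 in the NPC arrays. Both were higher in mDPC, with changes of 1.48 for Pax3 and 1.98 (at least 3.22-fold) for Dbx2, and Meis1, a partner of Hox proteins, was lower (-1.14). Pax3 was dim in both NPC arrays and in the mDPC array at 7.01, so its change has no bound. Of 20 Hox genes tested, 3 were higher and 7 lower, and 17 were dim in all 4 arrays. Hoxc10, of the lumbar spinal cord, was at 5.51 and 4.92 in the mDPC arrays, against 8.91 and 9.12 in the NPC arrays, a change of -3.80 ± 0.20 (adjusted p = 1.67e-11, at least 3.59-fold). Hoxa2, of the hindbrain, was at 9.42 and 9.32 in the mDPC arrays, against 7.45 and 7.70 in the NPC arrays, a change of 1.80 ± 0.12 (adjusted p = 7.09e-10). Hoxa10 changed by -1.80 ± 0.13 at dim levels, and Hoxa5 was not called (-0.42).

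Markers of cell types from outside the neural lineage were near background. Of 16 markers of microglia, endothelium, and neural crest and Schwann cells, 15 had a cluster and 7 passed the filter. None of the 7 was called by limma, all were dim in all 4 arrays, and their adjusted p lay between 0.146 and 0.98. The microglial receptor gene Cx3cr1 had the lowest of these, at 3.97 and 3.85 in the mDPC arrays, against 3.54 and 3.63 in the NPC arrays. Of 20 genes of mesenchyme and smooth muscle, 2 were higher and 6 lower, and 15 were dim in all 4 arrays. Lgals1, a galectin that many cell types make, was at 10.87 and 10.64 in the mDPC arrays, against 14.10 and 14.95 in the NPC arrays, a change of -3.77 ± 0.23 (adjusted p = 9.48e-11). Pluripotency genes were dim in all 4 arrays, with 2 of 5 called higher and 0 lower.

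Feedback genes of FGF signalling, whose ligands are in both media, were mostly lower in mDPC. Of 22 genes tested, 13 were lower and 4 higher, and 15 were dim in all 4 arrays. Dusp6, a phosphatase induced by ERK, was at 4.80 and 4.59 in the mDPC arrays, against 8.29 and 8.11 in the NPC arrays, a change of -3.50 ± 0.19 (adjusted p = 2.1e-11, at least 2.03-fold). Etv5, a transcription factor induced by FGF, was at 7.61 and 7.35 in the mDPC arrays, against 10.96 and 10.96 in the NPC arrays, a change of -3.48 ± 0.20 (adjusted p = 4.5e-11). The feedback inhibitor gene Spry4 changed by -2.39 ± 0.18, Spred2 by -1.28 ± 0.13 and Spry1 by -1.23 ± 0.13, while Spry2 was not called (-0.15). The receptor genes Fgfr2 (1.38) and Fgfr3 (0.65) were higher. Of 15 Hedgehog genes, 5 were lower and 1 higher, and 9 were dim in all 4 arrays. Ptch1, the Shh receptor and a pathway target, was at 10.29 and 10.17 in the mDPC arrays, against 12.57 and 12.80 in the NPC arrays, a change of -2.46 ± 0.09 (adjusted p = 9.6e-14). The co-receptor genes Cdon and Boc changed by -2.50 ± 0.11 (at least 1.91-fold) and -1.49 ± 0.11. Gli1, the target read most often for Hedgehog activity, was at 3.88 and 3.89 in the mDPC arrays, against 3.96 and 3.92 in the NPC arrays, near the medians of the negative controls, and was not called (-0.06). The transducer gene Smo was at 11.32 and 11.17 in the mDPC arrays, against 11.19 and 11.50 in the NPC arrays, and was not called (-0.10).

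Notch genes that changed were mostly lower. Of 19 tested, 11 were lower and 1 higher, with a median of -0.39. Of the ligands, Dll3 changed by -2.03 ± 0.14 (at least 1.76-fold) and Dll1 by -1.82 ± 0.18, and Jag1 was not called (-0.14). The receptor gene Notch1 was at 9.69 and 9.84 in the mDPC arrays, against 11.82 and 11.85 in the NPC arrays, a change of -2.07 ± 0.15 (adjusted p = 1.27e-09). The target Hes5, which holds precursors undifferentiated, was at 6.82 and 6.63 in the mDPC arrays, against 8.96 and 8.83 in the NPC arrays, and the feedback gene Nrarp at 6.99 and 6.76 in the mDPC arrays, against 9.79 and 9.80 in the NPC arrays. Both were below the control percentile in mDPC, with changes of -2.17 (at least 3.29-fold) and -2.92 (at least 6.17-fold) as measured. Hey1, another target, was at 11.60 and 11.49 in the mDPC arrays, against 11.50 and 11.43 in the NPC arrays, and was not called (0.08), and the ligand gene Dll4 was higher (0.66).

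BMP and Id genes moved in both directions. Of 22 tested, 8 were higher and 6 lower. Id2, which blocks basic helix-loop-helix factors, was at 16.52 and 16.29 in the mDPC arrays, against 15.02 and 15.18 in the NPC arrays, a change of 1.30 ± 0.20 (adjusted p = 4.01e-05), and Id4 was at 10.90 and 11.24 in the mDPC arrays, against 9.12 and 9.31 in the NPC arrays, a change of 1.86 ± 0.28 (adjusted p = 2.6e-05). Id3 was lower and Id1 was not called (0.57 ± 0.25, adjusted p = 0.0895), but was called without replicate 2 of NPC (0.83, limma adjusted p = 0.0461). The receptor gene Bmpr1b changed by 2.12 ± 0.13, and the ligand gene Bmp7 by -1.79 ± 0.15. Of 28 Wnt genes, 8 were lower and 5 higher, against 18.9% and 16.5% over all genes. The antagonist gene Sfrp1 (-1.61) and the feedback gene Nkd1 (-1.53, at least 1.93-fold) were lower, while the co-receptor gene Lrp5 (0.98) was higher.

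Sterol synthesis genes fell together. Of 18 tested, 17 were lower and 0 higher, with a median of -1.94 (-1.78 with genes at their bound), and Sc5d was not called (-0.19). Fdps, which makes farnesyl diphosphate, was at 8.29 and 8.27 in the mDPC arrays, against 12.04 and 12.37 in the NPC arrays, a change of -3.93 ± 0.14 (adjusted p = 5.76e-14). Mvk, mevalonate kinase, whose promoter is shown above, was at 5.80 and 5.89 in the mDPC arrays, against 8.72 and 9.01 in the NPC arrays, a change of -3.02 ± 0.11 (at least 3.24-fold). Lss, the enzyme that closes the sterol rings, changed by -2.64 ± 0.11, Nsdhl, a later enzyme, by -2.42 ± 0.09, and Sqle, squalene epoxidase, by -2.35 ± 0.10. Insig1, the sterol sensor that is itself a target of the pathway's regulator SREBP2, was at 8.70 and 8.57 in the mDPC arrays, against 11.18 and 11.36 in the NPC arrays, a change of -2.63 ± 0.13 (adjusted p = 8.61e-12). Every one of these genes was lower in both mDPC arrays than in both NPC arrays.

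Fatty acid genes split. Scd1, the desaturase that makes oleate, was at 12.52 and 12.66 in the mDPC arrays, against 16.71 and 17.01 in the NPC arrays, a change of -4.27 ± 0.17 (adjusted p = 2.58e-13), and a second cluster of this gene changed by -3.94. Elovl6, which lengthens fatty acids, changed by -2.28 ± 0.12, Fasn, fatty acid synthase, by -2.04 ± 0.20, and Acly, ATP citrate lyase, by -1.92 ± 0.10. Thrsp, Gpam, which starts glycerolipid synthesis (1.88), Me1, malic enzyme (1.01), and Fads2, a desaturase (0.81), were higher. In all, 4 of 12 members were higher and 6 lower. Among 15 genes of lipid transport, 6 were higher and 3 lower. Abca1, the pump that exports cholesterol, was at 13.31 and 13.84 in the mDPC arrays, against 10.04 and 9.98 in the NPC arrays, a change of 3.56 ± 0.20 (adjusted p = 4.04e-11). Apoe, the main apolipoprotein of the brain, was at 15.47 and 15.29 in the mDPC arrays, against 13.13 and 12.61 in the NPC arrays, a change of 2.51 ± 0.15 (adjusted p = 5.5e-11). Clu (2.59), another apolipoprotein, and the fatty acid receptor gene Cd36 (2.12) were higher, and Apod was lower (-3.20, at least 1.84-fold).

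Most lysosome and autophagy genes rose. Of 20 tested, 18 were higher and 0 lower, with a median of 0.94. Hexa, a subunit of hexosaminidase, was at 12.37 and 12.25 in the mDPC arrays, against 10.14 and 9.92 in the NPC arrays, a change of 2.28 ± 0.13 (adjusted p = 4.06e-11). The protease gene Ctsl was at 13.12 and 13.04 in the mDPC arrays, against 10.83 and 10.87 in the NPC arrays, a change of 2.23 ± 0.09 (adjusted p = 3.76e-13). The autophagy genes Wipi1 and Gabarapl1 changed by 1.92 ± 0.09 and 1.48 ± 0.15, and the protease gene Ctsb by 1.40 ± 0.12. The members not called were the cholesterol transporter Npc1 (0.04) and the regulator Tfe3 (-0.03).

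Of 21 genes of the integrated stress response, which ATF4 drives, 13 were higher and 2 lower. Besides Slc7a11, its amino acid transporter genes Slc7a5 and Slc3a2 changed by 2.29 ± 0.15 and 1.98 ± 0.12. Asns, asparagine synthetase, was at 10.75 and 10.28 in the mDPC arrays, against 8.87 and 9.11 in the NPC arrays, a change of 1.53 ± 0.13 (adjusted p = 1.87e-08). Chac1, which degrades glutathione, changed by 1.88 ± 0.17 at dim levels. Atf4 itself was not called (0.19), and the stress gene Ddit4 was lower (-1.88). Among 21 genes of glycolysis and hypoxia, 8 were higher and 5 lower. The peptide hormone gene Adm was at 7.98 and 6.58 in the mDPC arrays, against 3.92 and 3.60 in the NPC arrays, and Vegfa, the growth factor of blood vessels, at 9.37 and 8.34 in the mDPC arrays, against 7.10 and 6.21 in the NPC arrays. Both were higher in mDPC, by 3.52 for Adm and 2.20 (at least 2.86-fold) for Vegfa. Adm was dim in both NPC arrays and in the mDPC array at 6.58, so its change has no bound. The means of the list were 8.71 and 8.32 in mDPC, against 8.39 and 8.08 in NPC, and the part of the difference between the arrays of 1 stage in the changes was not tested. In contrast, the glucose transporter gene Slc2a1 was lower (-0.94) and Gapdh was not called (-0.08).

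Receptors and channels were among the genes that rose. Of 21 glutamate and GABA receptor genes, 9 were higher and 3 lower. Gabrb1 was at 11.54 and 11.73 in the mDPC arrays, against 7.18 and 6.83 in the NPC arrays, a change of 4.63 ± 0.15 (adjusted p = 8.49e-15). The GABA-A subunit gene Gabra4 was at 12.43 and 12.56 in the mDPC arrays, against 9.46 and 8.85 in the NPC arrays, and Gabbr1, of the GABA-B receptor, at 11.90 and 12.07 in the mDPC arrays, against 8.95 and 8.53 in the NPC arrays. Both were higher in every mDPC array than in any NPC array, with changes of 3.34 and 3.25. The metabotropic glutamate receptor gene Grm5 averaged 7.09 in mDPC, against 10.05 in NPC, a change of -2.96 ± 0.27 (adjusted p = 3.81e-08), and the kainate receptor gene Grik3 was lower too (-1.83, at least 1.89-fold). Of 24 ion channel genes, 8 were higher and 3 lower, and 16 were dim in all 4 arrays. The rises were led by the potassium channel genes Kcnq3 (2.24, at least 1.61-fold) and Kcnn2 (2.07, at least 1.44-fold). Kcnd3, also a potassium channel gene, was lower (-1.41, at least 2.29-fold).

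Axon guidance genes were more often lower. Of 36 tested, 18 were lower and 6 higher. The semaphorin receptor gene Plxna2 changed by -2.46 ± 0.12, the netrin receptor gene Dcc by -2.35 ± 0.12, and its ligand gene Ntn1 by -1.68 ± 0.18. Epha4, an ephrin receptor, was at 10.93 and 11.25 in the mDPC arrays, against 8.12 and 8.05 in the NPC arrays, a change of 3.00 ± 0.16 (adjusted p = 1.27e-11). Reln, the secreted guide of migrating neurons, was at 7.50 and 8.05 in the mDPC arrays, against 5.11 and 5.31 in the NPC arrays, a change of 2.56 ± 0.24 (adjusted p = 6.95e-08, at least 1.35-fold). Of 21 genes of gap junctions and cadherins, 7 were lower and 6 higher. Cdh4, R-cadherin, was at 6.73 and 6.78 in the mDPC arrays, against 9.70 and 10.40 in the NPC arrays, a change of -3.29 ± 0.17 (adjusted p = 1.15e-11, at least 7.33-fold), and Cdh2, N-cadherin, changed by -1.02 ± 0.07. The glial connexin gene Gjc3 was higher (1.71).

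The matrix changed by gene. All 24 collagen genes tested were dim in all 4 arrays, with 4 called higher and 6 lower. Of 33 genes of proteoglycans and matrix proteins, 13 were lower and 6 higher, and 19 were dim in all 4 arrays. Tnr, the tenascin of perineuronal nets, was at 13.23 and 13.26 in the mDPC arrays, against 10.55 and 10.36 in the NPC arrays, a change of 2.79 ± 0.28 (adjusted p = 1.8e-07), and Prelp, a leucine-rich matrix protein, at 7.10 and 7.01 in the mDPC arrays, against 9.35 and 9.73 in the NPC arrays, a change of -2.49 ± 0.15 (adjusted p = 9.48e-11, at least 5.15-fold). The proteoglycan gene Ncan was at 16.84 and 16.93 in the mDPC arrays, against 17.25 and 16.88 in the NPC arrays, and was not called (-0.18). Of 18 matrix proteases and their inhibitors, 7 were lower and 4 higher, and 11 were dim in all 4 arrays. The protease genes Adamts9 (2.89) and Mmp14 (2.31) were higher and the inhibitor gene Timp4 was lower (-2.04). Of 11 insulin-like growth factor genes, 7 were lower and 1 higher. Igfbp3, a binding protein, was at 5.07 and 5.45 in the mDPC arrays, against 9.73 and 10.27 in the NPC arrays, a change of -4.74 ± 0.26 (adjusted p = 2.32e-11, at least 7.08-fold), and Igfbp2 changed by -1.81 ± 0.21.

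Immediate early genes were more often higher. Of 17 tested, 8 were higher and 1 lower, 14 were dim in all 4 arrays, and the median of 0.43 became 0.20 with genes at their bound. Fos was at 7.33 and 7.25 in the mDPC arrays, against 4.82 and 4.87 in the NPC arrays, a change of 2.44 ± 0.36 (adjusted p = 2.09e-05) with no fold bound, and Jun, its partner in the factor AP-1, was at 11.28 and 11.09 in the mDPC arrays, against 9.43 and 9.49 in the NPC arrays, a change of 1.72 ± 0.15 (adjusted p = 1.7e-08). Egr1 was higher while dim at both stages (1.49). Of 17 glucocorticoid-responsive and clock genes, 8 were higher and 2 lower, and 9 were dim in all 4 arrays. Besides Pdk4, the clock gene Arntl was at 9.31 and 9.35 in the mDPC arrays, against 8.30 and 8.24 in the NPC arrays, a change of 1.06 ± 0.09 (adjusted p = 2.18e-08). Of 9 DNA methylation genes, 5 were lower and 0 higher. Dnmt1, which copies methylation at replication, was at 9.06 and 9.08 in the mDPC arrays, against 11.35 and 11.68 in the NPC arrays, a change of -2.44 ± 0.11 (adjusted p = 1.12e-12), and its partner gene Uhrf1 changed by -2.64 ± 0.15 (at least 1.62-fold). Dnmt3a, which sets new methylation, was not called (0.01). Among 18 imprinted genes, 9 were lower and 4 higher, and 11 were dim in all 4 arrays. Peg3 was at 8.86 and 8.91 in the mDPC arrays, against 12.18 and 12.20 in the NPC arrays, a change of -3.30 ± 0.30 (adjusted p = 4.67e-08). Impact was at 12.63 and 12.78 in the mDPC arrays, against 10.85 and 10.89 in the NPC arrays, a change of 1.83 ± 0.12 (adjusted p = 1.79e-10). Of 10 genes of estrogen receptors, co-factors and targets, 2 were higher and 2 lower, and 6 were dim in all 4 arrays. Igfbp4, a known target, changed by -1.55 (at least 1.84-fold) and the coactivator gene Ncoa1 by 0.70.

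Smaller groups showed single members that changed. Of 14 p53 target genes, 7 were lower and 2 higher, with the mitotic regulator Gtse1 at -3.31 (at least 2.08-fold) and the kinase gene Plk2 at -1.68. Of 21 genes of the acute phase and reactive glia, 4 were higher, Gfap among them, and 3 lower, such as Cp, ceruloplasmin (-1.34). Of the 21, 15 were dim in all 4 arrays. All 17 interferon response genes tested were dim in all 4 arrays, with 2 higher and 1 lower. Of 10 MHC class I genes, 2 were higher and 0 lower, and 8 were dim in all 4 arrays. B2m, the light chain of class I molecules, was at 15.74 and 15.32 in the mDPC arrays, against 14.10 and 14.16 in the NPC arrays, a change of 1.40 ± 0.17 (adjusted p = 1.31e-06). Of 19 genes of motile cilia, 3 were higher and 1 lower, and 18 were dim in all 4 arrays. Ascorbic acid is a cofactor of iron-dependent dioxygenases and was in the mDPC medium. Of 15 genes of these enzymes and of ascorbate transport, 6 were higher and 7 lower. Tmlhe and Bbox1, of carnitine synthesis, were higher (2.01 and 1.90), and Tet1, which oxidises methylated DNA, and the histone demethylase gene Kdm4a were lower (-1.28 and -0.96).

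The same step was measured in other arrays labelled BERKO, whose cells had received LY3201 at both stages. The 2 steps share no array. In the treated step 7303 genes were called (33.1%), 3817 higher (17.3%) and 3486 lower (15.8%). Of the 3645 genes higher in the untreated step, 2831 were also called higher in the treated step (74.2% of the treated and 77.7% of the untreated calls), and 2 were called lower. Of the 4173 lower genes, 3065 were also called lower (87.9% of the treated and 73.4% of the untreated calls), and 1 was called higher. Mki67 was at 5.18 and 5.08 in the LY3201-treated mDPC arrays, against 15.81 and 15.70 in the LY3201-treated NPC arrays, a change of -10.62 ± 0.20. Slc7a11 was at 15.91 and 15.66 in the LY3201-treated mDPC arrays, against 8.63 and 8.90 in the LY3201-treated NPC arrays, a change of 7.02 ± 0.23. Mitosis genes had a median of -5.58 in the treated step with 38 of 38 lower, and sterol synthesis genes -1.47 with 16 of 18 lower. Astrocyte genes had a median of 0.94, with 23 of 30 higher and 3 lower. Ribosome biogenesis genes had a median of -0.06 and 2 of 18 lower. The test of the difference between the treated and the untreated step called 3 genes (0.0136%), 2 upwards (0.00906%) and 1 downwards (0.00453%), and 1718 (7.79%) had an unadjusted p under 0.05. The called genes were Cyfip2, of the actin-regulating WAVE complex (0.99 ± 0.15, adjusted p = 0.0385), Rapgef1, an exchange factor of Rap proteins (0.66 ± 0.10, adjusted p = 0.0385), and the predicted gene Gm24131 (-1.26 ± 0.20, adjusted p = 0.0385), given as treated minus untreated step. After quantile normalization none of the differences was called, and leaving out 1 array gave between 0 and 4 calls.

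**Figure D4:**
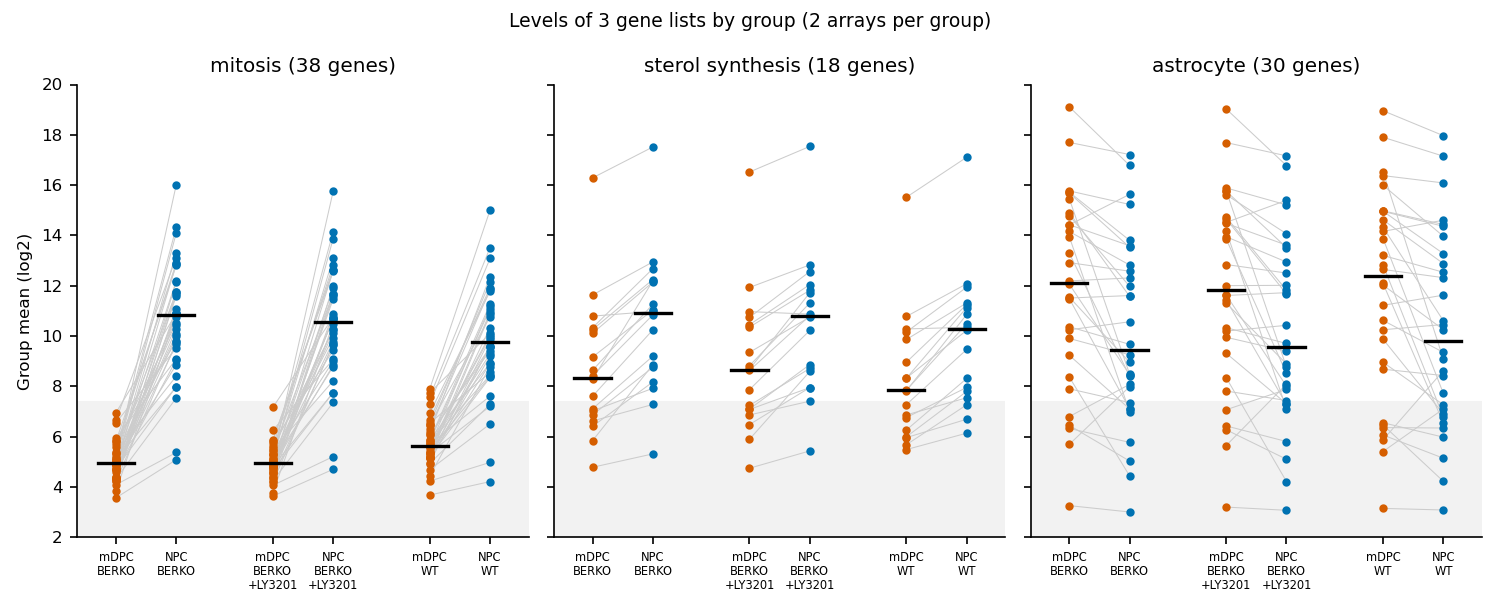
Group means (log2, vertical axis) of every tested gene of the mitosis, sterol synthesis and astrocyte lists in 6 groups of 2 arrays, mDPC (orange) left of NPC (blue) in BERKO, BERKO with LY3201 and WT. Lines join a gene's 2 means, bars are medians, and the shaded area ends at 7.39. The mitosis medians are 4.95, 4.94 and 5.63 in mDPC, against 10.82, 10.58 and 9.75 in NPC.

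The step in WT cells shares no array with the BERKO step either, and asks whether the arrays labelled as the knockout take the step differently. In WT 6716 genes were called (30.4%), 3226 higher (14.6%) and 3490 lower (15.8%). Of the 3645 genes higher in the BERKO step, 2154 were also called higher in WT (59.1% of the BERKO and 66.8% of the WT calls) and 48 lower. Of the 4173 lower genes, 2673 were also called lower in WT (64.1% and 76.6%) and 50 higher. The difference between the steps was called for 1914 genes (8.68%), 812 with the BERKO step above the WT step (3.68%) and 1102 below (4.99%). After quantile normalization the counts were 1047 above and 820 below, so the share above moved to 56.1%, against 42.4% without it. Without replicate 1 of NPC WT the total was 1204. Of the 36 genes whose difference is given below, 9 were above the control percentile in all 4 groups and 5 kept the sign of their difference with dim arrays at that percentile. The other 22 had dim groups that leave the size of the difference without a bound.

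**Figure D5:**
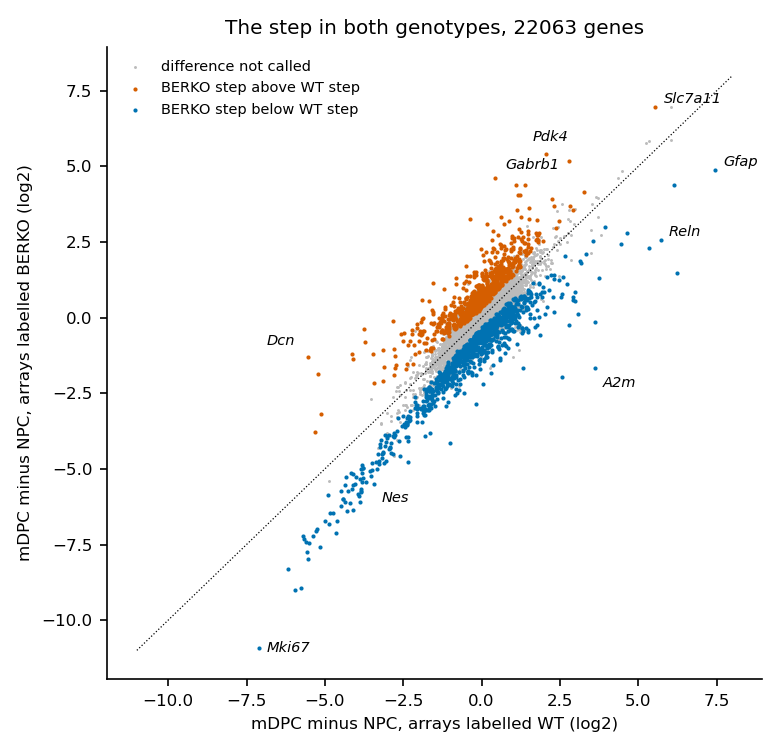
The step (mDPC minus NPC, log2) in arrays labelled BERKO (vertical axis) against the step in arrays labelled WT (horizontal axis) for the 22063 genes tested. Coloured points are the 1914 genes whose difference between the steps was called, the dotted line marks equal steps, and named genes are discussed in the text. Mki67 lies at -10.93 for BERKO and -7.11 for WT.

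Mitosis genes fell in both genotypes, and their measured fall was larger in BERKO. In WT 38 of the 38 were lower, with a median of -4.34, and the difference was called downwards for 37 and upwards for 0. Beside its BERKO levels given above, Mki67 was at 7.96 and 7.83 in mDPC WT, against 14.83 and 15.19 in NPC WT, and its difference was -3.82 ± 0.28 (adjusted p = 4.19e-08). Kif11 and Top2a differed by -3.15 ± 0.16 and -3.05 ± 0.17. Because these genes were dim in mDPC BERKO, their differences are bounds too, of -1.73 or beyond for Mki67, -1.15 for Kif11 and -1.21 for Top2a with those arrays at the control percentile. Such a bound could be given for 4 of the 38 genes and was below 0 in those 4, while most of the others were dim in mDPC WT as well, so how much further they fell in BERKO was not measured. The mDPC medians of the list were 4.95 in BERKO and 5.63 in WT, and the NPC medians 10.82 in BERKO and 9.75 in WT. Since 36 of the 38 genes were dim in mDPC alone in BERKO and 29 in WT, the medians with genes at their bound were -3.65 in BERKO and -2.36 in WT. Replication genes differed downwards for 22 of 40. Nes changed by -5.49 in BERKO and -3.44 in WT, a difference of -2.05 ± 0.31.

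Among the glial genes, Gfap rose less in BERKO than in WT, where it was at 16.30 and 16.77 in mDPC WT, against 9.29 and 8.88 in NPC WT, a difference of -2.56 ± 0.31 (adjusted p = 1.7e-05). The measured rises of Slc7a11 and Ntsr2 were larger in BERKO, with differences of 1.43 ± 0.32 and 1.69 ± 0.28. However, Slc7a11 was dim in NPC WT, and Ntsr2 was dim in NPC BERKO and in both WT groups. Neither difference has a bound. Astrocyte genes differed upwards for 8 and downwards for 5 of 30. Enpp6 differed by 2.81 ± 0.57 and the stem cell gene Prom1 by -1.85 ± 0.19. Id1, Id2 and Id3 differed by 2.48 ± 0.35, 2.12 ± 0.29 and 1.47 ± 0.20. Id1 in WT was at 6.96 and 6.51 in mDPC WT, against 8.57 and 8.73 in NPC WT. The cycle genes Cdkn1a and Ccnd2 differed by 1.66 ± 0.30 and 1.27 ± 0.18. Fitted on the arrays of these groups alone, the difference of Cdkn1a was not called (limma adjusted p = 0.0539). Cdkn1a was not called in the BERKO step and was lower in the WT step (-1.55).

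The largest differences upwards included genes that were higher in NPC WT than in the other groups. Dcn, the proteoglycan decorin, was at 4.72 and 4.77 in mDPC, against 6.02 and 6.09 in NPC of BERKO, and at 5.38 and 5.41 in mDPC WT, against 10.96 and 10.90 in NPC WT, a difference of 4.22 ± 0.32 (adjusted p = 4.79e-08). Postn, periostin, was at 5.04 and 4.71 in mDPC, against 6.86 and 6.64 in NPC of BERKO, and at 4.96 and 4.79 in mDPC WT, against 10.18 and 10.03 in NPC WT, a difference of 3.35 ± 0.20. Lbp, which binds bacterial lipopolysaccharide, was at 3.35 and 3.56 in mDPC, against 3.84 and 3.85 in NPC of BERKO, and at 3.52 and 3.61 in mDPC WT, against 7.25 and 7.39 in NPC WT, a difference of 3.37 ± 0.24. NPC WT stood above the other groups in these 3 genes, but Lbp was dim in every array, and Dcn and Postn were dim in every group but NPC WT, so the sizes of these differences are not bounded. Collagen genes differed upwards for 9 of 24 and downwards for 0, such as Col3a1 (2.73), and the protease gene Mmp2 differed by 2.89 ± 0.14. Other differences upwards were genes that rose in mDPC BERKO. Gabrb1 in WT was at 6.36 and 6.10 in mDPC WT, against 5.91 and 5.66 in NPC WT, a difference of 4.19 ± 0.21 (adjusted p = 3.75e-10). Pdk4 in WT was at 7.41 and 7.71 in mDPC WT, against 5.58 and 5.45 in NPC WT, a difference of 3.39 ± 0.26, and Pgm5 differed by 3.30 ± 0.23. Abcd2, a peroxisomal fatty acid transporter, was at 9.79 and 9.13 in mDPC, against 6.26 and 6.14 in NPC of BERKO, and at 6.87 and 6.42 in mDPC WT, against 7.06 and 6.99 in NPC WT, a difference of 3.63 ± 0.25. Abhd3, a phospholipase, differed by 3.00 ± 0.22. Gabra4 differed by 2.72 ± 0.30.

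Downwards, A2m, the protease inhibitor alpha-2-macroglobulin, was at 5.59 and 5.38 in mDPC, against 7.19 and 7.13 in NPC of BERKO, and at 10.71 and 10.95 in mDPC WT, against 7.22 and 7.20 in NPC WT, a difference of -5.29 ± 0.20 (adjusted p = 9.68e-12). Pi15, another protease inhibitor gene, was at 4.86 and 5.14 in mDPC, against 6.89 and 7.01 in NPC of BERKO, and at 9.41 and 9.43 in mDPC WT, against 7.27 and 6.41 in NPC WT, a difference of -4.53 ± 0.35, and Vat1l, named for its likeness to a synaptic vesicle protein, with averages of 5.85 in mDPC, against 5.99 in NPC of BERKO, and at 8.90 and 9.32 in mDPC WT, against 5.43 and 5.54 in NPC WT, a difference of -3.76 ± 0.45. A2m and Pi15 were called higher in the WT step and lower in the BERKO step, and Vat1l was called higher in WT and was not called in BERKO (-0.13). All 3 were dim in both BERKO groups and in NPC WT, so only their level in mDPC WT is above background. Speer8-ps1, listed as a pseudogene, differed by -4.77 ± 0.25. Reln rose in both genotypes and was at 11.96 and 11.57 in mDPC WT, against 6.18 and 5.92 in NPC WT, a difference of -3.15 ± 0.34. Neto1, an auxiliary subunit of kainate receptors, changed by -4.13 ± 0.17 in BERKO and -1.02 ± 0.17 in WT, a difference of -3.11 ± 0.24. Gabbr2, of the GABA-B receptor, differed by -3.02 ± 0.44, and Hoxc10 by -2.15 ± 0.29. Integrated stress response genes differed upwards for 9 of 21 and downwards for 1, with Asns at 1.78 and Chac1, dim in every group, at 1.61. Lysosome genes differed upwards for 7 of 20 and downwards for 0, with Hexa at 1.29. For sterol synthesis 5 of 18 differed downwards and 0 upwards, with a median difference of -0.07. FGF signalling genes differed for 1 upwards and 1 downwards of 22, and a difference that was not called does not show that the steps were alike.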

How the data were processed

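RNA of 29 samples was measured on 1-colour Clariom D arrays. The values deposited by the authors are log2 SST-RMA expression values from Affymetrix Expression Console 1.4, per the labels, and no further normalization was applied to them. The array's genome build is not given in the sources used here. Of 65956 transcript clusters, 30604 had 1 gene symbol, 2146 several and 33206 none in the platform annotation. Symbols were updated through RefSeq (827 changed), and 30142 genes had a cluster of their own. For the 355 genes with more than 1, the brightest cluster by its mean was used. The filter on low levels kept 22063 genes, those above the median of an array in at least 2 arrays.

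Groups came from the labels. One model with a mean for each of 14 groups was fitted in limma 3.58.1 (R 4.3.3), with 15 degrees of freedom left over and 3.303 more from the prior,, and Benjamini-Hochberg adjustment over all genes tested and a threshold of 0.05. Differences between steps were contrasts of the same model. In simulated data for the mDPC and NPC BERKO groups, with 100 genes changed per size among 22063, the test found 40% of the genes moved by 0.5 log2 units and 89% of those moved by 1, and made 4 false calls. A far larger share was called in the measured comparison (35.4%). Recovery and false calls under this adjustment depend on that share, so these figures are not the rates of the measured comparison. Precision is limited by 2 arrays per group. Scan dates and batches were not used here.

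The comparison and the gene lists were chosen with earlier results of these data known. Genes were named by rule: Esr2 and Esr1, the 12 largest called rises and falls with no overlap (predicted genes, small RNAs and chemosensory receptors left out), up to 6 called members of each list in each direction, up to 4 members not called with the highest level, any cell type marker, and the 8 largest differences between steps each way with up to 3 per list. Birc5, Mybl2, Gli1, Cyfip2, Rapgef1 and Gm24131 are named outside the rule, chosen after their values were seen. Alternatives were quantile normalization, no filter and a stricter one (the 75th percentile), a trended robust prior, transcript clusters as the unit, only the arrays of the groups compared, and each replicate left out.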

Additional observations from a re-analysis of the deposited data

Results flagged for a closer look

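The results here are those whose step from NPC to mDPC differed between 2 sets of arrays by the limma test of the difference itself, adjusted over all genes. Between BERKO and WT (BERKO step minus WT step), cell division genes had lower differences as measured, with Mki67 at -3.82, Kif11 at -3.15 and Top2a at -3.05. With dim mDPC BERKO arrays at the control percentile, these become -1.73, -1.15 and -1.21 or beyond. Nes, of neural stem cells, differed by -2.05. The BERKO step lay above the WT step for Dcn (4.22), Gabrb1 (4.19), Abcd2 (3.63), Pdk4 (3.39), Lbp (3.37), Postn (3.35), Pgm5 (3.30), Abhd3 (3.00), Mmp2 (2.89), Enpp6 (2.81), Col3a1 (2.73), Gabra4 (2.72), Id1 (2.48), Id2 (2.12), Asns (1.78), Ntsr2 (1.69), Cdkn1a (1.66), Chac1 (1.61), Id3 (1.47), Slc7a11 (1.43), Hexa (1.29) and Ccnd2 (1.27). It lay below for A2m (-5.29), Speer8-ps1 (-4.77), Pi15 (-4.53), Vat1l (-3.76), Reln (-3.15), Neto1 (-3.11), Gabbr2 (-3.02), Gfap (-2.56), Hoxc10 (-2.15) and Prom1 (-1.85). For 22 of these 36 genes some groups were dim and the size of the difference has no bound. The genotype labels and the lines of cells cannot be told apart in this design. Between the LY3201-treated and the untreated BERKO step, Cyfip2 (0.99) and Rapgef1 (0.66) were higher and Gm24131 (-1.26) was lower.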

How the results depend on the processing

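For the untreated BERKO step, the number of genes called stayed between 6551 and 7819 under every alternative on genes that kept all replicates. Without 1 replicate the number of genes called lay between 6196 and 6791, with 2790 to 3198 higher and 3255 to 3811 lower. With transcript clusters as the unit, 10049 clusters were called, a count that is not one of genes. Quantile normalization gave 4287 higher and 3388 lower. The difference between the BERKO and the WT step was called for 1204 to 1543 genes without 1 replicate, 550 to 760 upwards and 652 to 916 downwards. The total was 1204 without NPC WT replicate 1, and the downward count was 652 without it, 698 without mDPC WT replicate 1 and 726 without NPC BERKO replicate 2. Leaving out a replicate takes away a sample, and no other cause was tested. The LY3201-treated step had 5701 to 6138 calls without 1 replicate (2935 to 3255 higher and 2715 to 3022 lower). Its difference from the untreated step had 0 calls by limma after quantile normalization and 0 to 4 without 1 replicate. After quantile normalization, 2 midbrain genes were higher, 2 Notch genes higher, 0 interferon response genes lower, 1 glucocorticoid and circadian gene lower and 1 estrogen receptor and target gene higher. The cause was not tested. Of 225 genes named with a test, 216 kept direction and side of the threshold for the step in every alternative run on single genes (quantile normalization, compared groups alone and left-out replicates), and none changed sign while called. For the difference between the BERKO and the WT step, 165 of the 225 did. No paired analysis was possible because the labels give no replicate number that mDPC and NPC arrays share, and the numbers 1 and 2 used here follow the order of the samples and only name the arrays. Levels below the 95th percentile of the negative controls give bounds, and small changes among dim genes are the least certain.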

Other observations

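Small nuclear and nucleolar RNAs, which no list holds, were called higher in mDPC BERKO than in NPC BERKO more often than lower. Over all 22063 genes tested, 16.5% were called higher and 18.9% lower. Of 767 snRNA genes tested, 164 were called higher and 10 lower by limma, with a median change of 0.31 on the log2 scale, and of 751 snoRNA genes 84 were higher and 33 lower, with a median of 0.26. Pseudogenes ran the other way, with 180 of 3286 higher, 747 lower and a median of -0.10. Many members of these classes have near-identical copies, so signal may be shared between them. Of 1553 lncRNA genes, 154 were higher and 84 lower, and of 397 miRNA genes 16 were higher and 17 lower. Protein-coding genes had 2988 higher and 3194 lower of 14536, with a median of 0.04. The share called higher was above that over all genes for snRNA genes and below it for snoRNA, lncRNA and miRNA genes. For these classes the share called lower was below that over all genes, and for pseudogenes it was above. So snoRNA genes were called less often than the average gene in both directions. Whether the shares differ was not tested.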
